A study of Mus musculus with 2 samples.

Results

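Iron and heme handling genes were followed in brain sections of mice with a controlled cortical impact (CCI), a contusion of the cortex through the opened skull. The set was a list of 10 gene symbols, namely Hmox1, Slc40a1, Slc11a1, Slc11a2, Cp, Trf, Steap3, Ireb2, Fth1 and Ftl1. Of these, 9 genes were among the 19070 genes of the count table, and Ftl1 was not analysed here. The spatial assay, Visium HD for formalin-fixed and paraffin-embedded (FFPE) tissue, reads gene-specific probe pairs, so the level of a gene is compared with its own level elsewhere and never with the level of another gene.

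Both groups were untreated C57Bl6 males of 3 months with the same injury, and differed in the time after it, 3 days or 28 days. The brains were perfusion-fixed and postfixed before embedding, and each group was 1 section. No uninjured section was analysed here, so the opposite side of the same section is the reference throughout, and it is not an uninjured brain. With 1 section per group there is no replicate check and no p-value, and every interval given is a 95% interval for counting error only, which leaves out the spread between mice and between sections.

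Iron reaches brain cells mainly bound to transferrin, encoded by Trf, and is freed in endosomes, where the reductase Steap3 acts on ferric iron and the transporters Slc11a2 (DMT1) and Slc11a1 (NRAMP1, of phagocytes) carry ferrous iron across the membrane. Inside cells it is stored in ferritin, whose heavy chain is Fth1, and it leaves through ferroportin, Slc40a1, together with the ferroxidase ceruloplasmin, Cp. Heme from lysed red blood cells is broken down by heme oxygenase 1, Hmox1, to iron, biliverdin and carbon monoxide, and Ireb2 (IRP2) binds iron-responsive elements of mRNAs such as those of ferritin and the transferrin receptor. In the brain, oligodendrocytes are known for high Trf and ferritin expression.

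The 3 day section had 121967 bins of 16 µm with a median of 836 UMIs and the 28 day section 105589 bins with a median of 596 UMIs, where a UMI (unique molecular identifier) marks 1 captured probe. Only bins with at least 100 UMIs were used, and levels are given as CPM, the UMIs of a gene per 1000000 UMIs of an area. The 3 day section was cut by the array edge on the injured side, which was 2.08 mm wide against 4.62 mm on the opposite side, while the widths were 3.84 and 2.86 mm at 28 days, so the sides hold different anatomy. The lesion zone was placed by 6 phagocyte genes (Cd68, Lyz2, Ctsz, Lgals3, Cd52 and Laptm5) and held 8384 bins at 3 days and 13559 bins at 28 days, and the mirror zone was its reflection across the boundary between the sides, with 7737 and 11747 bins. The zone had 602 UMIs per bin at 3 days against 930 in the mirror zone, and 528 against 628 at 28 days. The zones also differed in their cells. At 3 days the 8 oligodendrocyte markers summed to 12215 CPM in the zone and 4739 CPM in the mirror zone, the 11 microglia and macrophage markers to 2431 and 699.5 CPM, the 4 hemoglobin genes that mark red blood cells to 233 and 5.56 CPM, and the 7 neuron markers to 1824 and 6751 CPM. Astrocyte markers summed to 5928 and 3412 CPM there, mural cell markers to 793 and 187 CPM, endothelium markers to 432 and 159 CPM, and fibroblast and meninges markers to 434 and 179 CPM. The same sums at 28 days were 9085 and 9040 CPM for oligodendrocytes, 5486 and 396 CPM for microglia and macrophages, 2.65 and 1.90 CPM for red blood cells, and 2285 and 6075 CPM for neurons, with 11336 and 3183 CPM for astrocytes, 422.5 and 273 CPM for mural cells, 316.5 and 224 CPM for endothelium, and 497 and 94.7 CPM for fibroblasts and meninges. The mirror zone also held other anatomy than the zone, as markers of striatum and amygdala summed to 654 CPM in the zone and 129 CPM in its mirror at 3 days and to 308 and 1010 CPM at 28 days, and those of thalamus to 183 and 824 CPM and to 672 and 1461 CPM. The part of this anatomy and of these cell numbers in the results below was not tested, and more cells of a type cannot be told apart from more RNA per cell.

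Of the 9 measured genes, 5 were at least 2-fold higher on the injured side than on the opposite side at 3 days (Hmox1, Trf, Slc11a1, Steap3 and Cp) and none was at least 2-fold lower, while 10.5% of the 16164 genes compared were higher and 2.12% lower by the same rule of at least 20 UMIs over both areas. Between lesion zone and mirror zone at 3 days, Fth1 joined these, so that 6 of 9 were higher and none lower, against 17.1% of 13520 genes higher and 8.72% lower. At 28 days 3 of 9 were higher on the injured side (Slc11a1, Hmox1 and Cp) and none lower, against 6.43% of 15640 genes higher and 0.582% lower. In the lesion zone at 28 days 5 of 9 were higher than in the mirror zone (Slc11a1, Hmox1, Cp, Steap3 and Slc40a1) and none lower, against 16.4% of 13593 genes higher and 7.82% lower. The median log2 ratio of the 9 genes was 1.31 in the zone at 3 days and 1.30 at 28 days, where the medians of all genes were 0.13 and -0.00. The genes were chosen with earlier results of these data known, so these counts and medians are a description and no independent check. Slc11a2 and Ireb2 were within 2-fold in all 4 comparisons. With only those bins whose mirror bin was also over tissue, which evens out the cropped side, 3 of 9 were higher between the sides at 3 days, with Cp at log2 0.67 and Steap3 at 0.90.

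**Figure D1:**
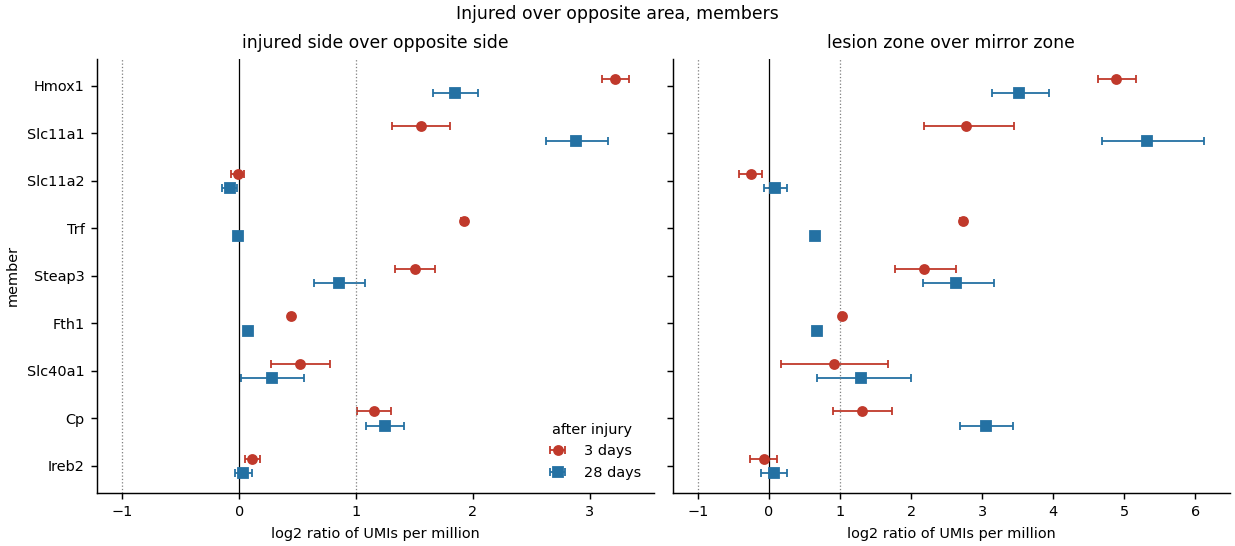
Log2 ratio of CPM for the 9 genes, with 95% counting intervals as bars; the left panel compares the injured with the opposite side and the right panel the lesion zone with the mirror zone, with circles for 3 days and squares for 28 days. Hmox1 has the highest ratio of the 9 at 3 days (4.89 in the zone) and Slc11a1 at 28 days (5.32 in the zone), whereas Slc11a2 and Ireb2 lie close to 0 in both panels.

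Coordinates are those of the RefSeq annotation of GRCm38.p6, the assembly behind mm10. Hmox1 (chr8:75093618-75100593), the enzyme that opens the heme ring, was measured at 508 CPM (2563 UMIs, interval 488 to 528) in the lesion zone at 3 days and at 17.1 CPM (123 UMIs, 14.2 to 20.4) in the mirror zone. At 28 days the values were 89.0 CPM (637 UMIs, 82.2 to 96.2) and 7.72 CPM (57 UMIs). Its counting intervals did not overlap between zone and mirror zone at either time, and the ratio was 29.7-fold at 3 days (log2 4.89, 4.63 to 5.17) and 11.5-fold at 28 days (log2 3.52, 3.13 to 3.94). At 3 days 30 of the 13520 genes compared, or 0.222%, had a higher ratio. With the zone placed by Gfap and Vim instead, the 3 day log2 ratio of Hmox1 was 3.16 and that of Trf 2.76, so the size of the Hmox1 ratio depended on where the zone was placed. Over the whole sides, Hmox1 was 90.1 CPM on the injured and 9.67 CPM on the opposite one at 3 days, 9.31-fold, and 24.0 and 6.69 CPM at 28 days, 3.59-fold. At 3 days the zone held 2563 of the section's 4185 Hmox1 UMIs in 8384 of its 119617 bins with at least 100 UMIs.

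Inside the zone at 3 days, Hmox1 was uneven. Bins were sorted into 23 regions by clustering tiles of 32 µm on genes other than the iron and heme genes, and a region is called here by its leading genes. The cell type or area markers named beside a region are the list with the highest mean ratio there to the other bins. In the part of the zone led by Hbb-bs, Hba-a2 and Cxcl10, 2063 bins, Hmox1 reached 1425 CPM (1359 to 1494) and 67.7% of the zone's Hmox1 UMIs. In the part led by Klk6, Tgm1 and Ptx3, 4664 bins, it was 244 CPM (225 to 264), and in the 170 zone bins of the region led by Slc47a1, H2-Q1 and Cdh1, where fibroblast and meninges markers were highest, it was 588 CPM (465 to 732). Between the hemoglobin-led and the Klk6-led part Trf had the opposite order, with 999 CPM in the former and 8300 CPM in the latter. At 28 days 73.0% of the zone's Hmox1 UMIs lay in the part led by Mmp3, Atp6v0d2 and Cst7, 6748 bins, at 125 CPM (114 to 137). The regions led by Klk6, by Mmp3 and by Hbb-bs each came mostly from 1 section, so they may reflect that section as much as a kind of tissue.

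At 3 days, zone bins of 16 µm that held a Hmox1 UMI also held more red blood cell RNA. Bins were thinned to 300 UMIs and 1626 shallower bins left out, after which 694 bins, 10.3%, had a Hmox1 UMI. Red blood cell markers made up 362 CPM of the bins with Hmox1 and 73.1 CPM of those without (log2 2.31, 1.88 to 2.73), fibroblast and meninges markers 888 and 330 CPM, microglia and macrophage markers 3716 and 2531 CPM, and oligodendrocyte markers 7012 and 15325 CPM. Bins with Hmox1 were thus higher in red blood cell, fibroblast and phagocyte markers and lower in oligodendrocyte markers. At 28 days, with 4404 bins left out, 210 bins, 2.29%, had a Hmox1 UMI, with microglia and macrophage markers at 7885 CPM against 5987 CPM in the other bins, while red blood cell markers were near 0 in the whole zone (2.65 CPM). A bin can hold parts of several cells, so these values do not place Hmox1 in a cell type.

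Hmox1 was also higher beyond the zone at 3 days. In the band of 0 to 250 µm outside it, Hmox1 was 76.8 CPM against 16.4 CPM in the mirrored band (log2 2.22, 1.89 to 2.58), and from 250 to 500 µm 22.7 against 5.05 CPM (log2 2.14, 1.46 to 2.96). From 500 to 1000 µm it was 8.90 against 4.43 CPM (log2 0.99, 0.30 to 1.75), and from 1000 to 2000 µm 6.85 against 7.22 CPM (log2 -0.08, -0.59 to 0.44). Hmox1 was thus higher through the first 3 bands, and in the outermost one any difference was within counting error. The zone did not hold all bins of the hemoglobin-led region, as 2063 of its 3772 injured-side bins at 3 days lay in it. The part of its other bins in these bands was not tested. The innermost band at 28 days had 13.1 against 5.47 CPM (log2 1.24, 0.65 to 1.90), and the intervals of the other bands included 0.

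Within single regions at 3 days, Hmox1 was higher on the injured side in 13 of 16 regions with enough counts and at least 2-fold higher in 9. It was at least 2-fold lower in 1, the region led by Six3, Pvalb and Lancl3, at 4.04 against 9.30 CPM (9 and 12 UMIs, log2 -1.18, -2.63 to 0.17). In the region led by Adora2a, Sh3rf2 and Serpina9, where striatum and amygdala markers were highest, it was 29.1 CPM on the injured and 3.94 CPM on the opposite side, where 704 of its 1232 bins on the injured side lay inside the lesion zone. In the region led by Abhd12b, Atp2a1 and Prkcd, highest in thalamus markers, it was 22.6 and 3.28 CPM (log2 2.77, 2.12 to 3.49). The median log2 ratio of all genes within a region lay between -0.09 and 0.16. In the Slc47a1-led region Hmox1 was high on both sides at 3 days, 216 CPM on the injured and 124 CPM on the opposite side, and at 28 days 69.3 and 16.3 CPM.

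Of 10 other genes of heme breakdown and transport, 9 could be compared in the zone at 3 days, and 2 were at least 2-fold higher and none lower, a share near the 17.1% of all genes. These were Hp, the plasma hemoglobin binder haptoglobin, at 6.74 against 0.695 CPM (34 and 5 UMIs), and Cd163, its scavenger receptor on macrophages, at 5.15 against 1.53 CPM (26 and 11 UMIs). At 28 days 4 of 9 were higher, against 16.4% of all genes, namely Hp (59 and 3 UMIs, log2 4.13, 2.72 to 6.66), the heme exporter Flvcr1 (52.5 against 18.6 CPM), the biliverdin reductase Blvrb (45.0 against 19.5 CPM) and Lrp1, which takes up the heme-hemopexin complex (1089 against 492 CPM). The constitutive heme oxygenase Hmox2 stayed near its mirror level, with 115 against 107 CPM at 3 days and 107 against 122 CPM at 28 days. Of the hemoglobins, 3 of 3 compared were higher at 3 days, with Hba-a2 at 125 against 2.36 CPM, Hbb-bs at 89.8 against 1.39 CPM and Hbb-bt at 17.0 against 0.278 CPM (86 and 2 UMIs, log2 5.62, 4.04 to 9.01). Of 12 genes of heme synthesis 1 was higher at 3 days, under the share of all genes, the erythroid Alas2, with 27 UMIs in the zone and none in the mirror zone. Against a limit of 3 UMIs Alas2 was at least 12.8-fold higher. At 28 days 11 of the 12 heme synthesis genes could be compared and none reached 2-fold, while 1 had too few UMIs. Near-identical hemoglobin copies may share probes, so their values are uncertain as to the copy.

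**Figure D2:**
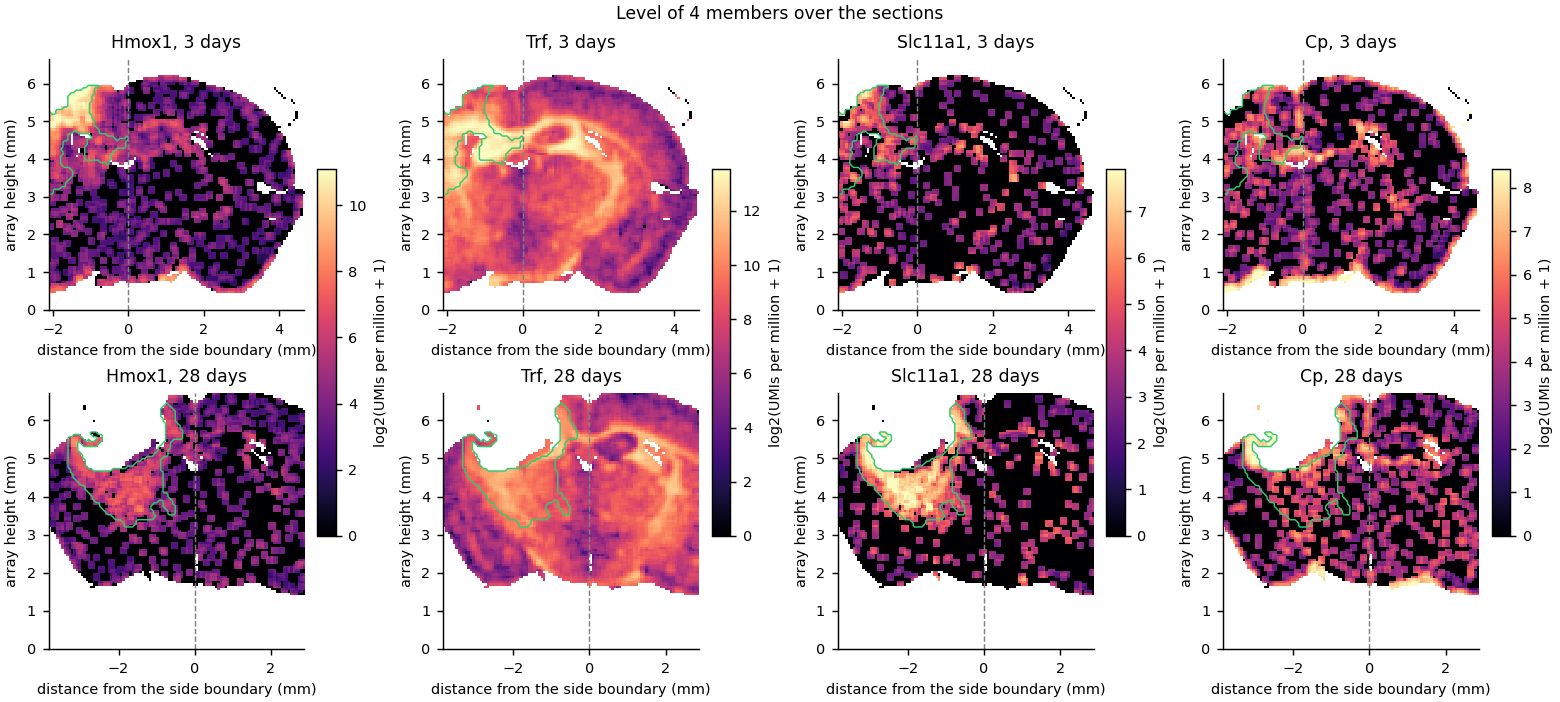
Maps of Hmox1, Trf, Slc11a1 and Cp at 3 days (top) and 28 days (bottom) over tiles of 64 µm, coloured by log2(CPM + 1) over each tile and its neighbours on 1 scale per gene, with axes in mm, the side boundary as a dashed line and the lesion zone outlined in green. Hmox1 and Trf fill different parts of the zone at 3 days, and Slc11a1 in the zone is higher at 28 days, at 100.3 CPM, than at 3 days, at 26.0 CPM.

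Trf (chr9:103208876-103230286), the plasma and oligodendrocyte iron carrier, was 5101 CPM (25741 UMIs, 5039 to 5164) in the zone at 3 days and 772 CPM (5553 UMIs) in the mirror zone. At 28 days it was 964 CPM (941 to 987) in the zone and 617 CPM in the mirror zone. The ratio was 6.61-fold at 3 days (log2 2.72, 2.68 to 2.77) and 1.56-fold at 28 days (log2 0.64, 0.59 to 0.70), so Trf stood further above its mirror level at 3 days than at 28 days. The difference of the log2 ratios, 28 days minus 3 days, was -2.08 (-2.15 to -2.01, counting error only). Oligodendrocyte markers in zone and mirror zone also differed between the times, and their part in this difference was not tested. The 3 day zone ratio moved far beyond its counting interval with the setting, from log2 2.10 (UMIs per bin) to 4.01 (whole opposite side as reference). On the whole injured side Trf was 1196 CPM against 316 CPM at 3 days, 3.79-fold, and 327 against 330 CPM at 28 days. With only bins that have a mirror bin, the log2 ratio of the sides at 3 days was 1.24 in place of 1.92.

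The Klk6-led part of the zone held 82.7% of the zone's Trf UMIs at 3 days, at 8300 CPM (8188 to 8412). The Klk6-led region also had 2392 bins on the opposite side, where Trf was 5530 CPM, against 8144 CPM on the whole injured side. In the zone Trf was 7292 CPM in the 316 bins led by Thbs4, Cyp2j12 and Mal, highest in oligodendrocyte markers. It was 2854 CPM in the zone bins led by Tmem212, Stoml3 and Unc5cl, highest in ependyma markers. In the thinned bins of the 3 day zone, 62.3% had a Trf UMI, and oligodendrocyte markers were 19796 CPM in these against 5991 CPM in the others (log2 1.72, 1.68 to 1.77). At 28 days 21.8% of bins had one, with oligodendrocyte markers at 13194 and 8130 CPM. The zone was itself richer in oligodendrocyte markers than the mirror zone at 3 days, 12215 against 4739 CPM. At 28 days the sums of these markers were nearly equal in zone and mirror zone. Their part in the Trf ratios at both times was not tested.

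**Figure D3:**
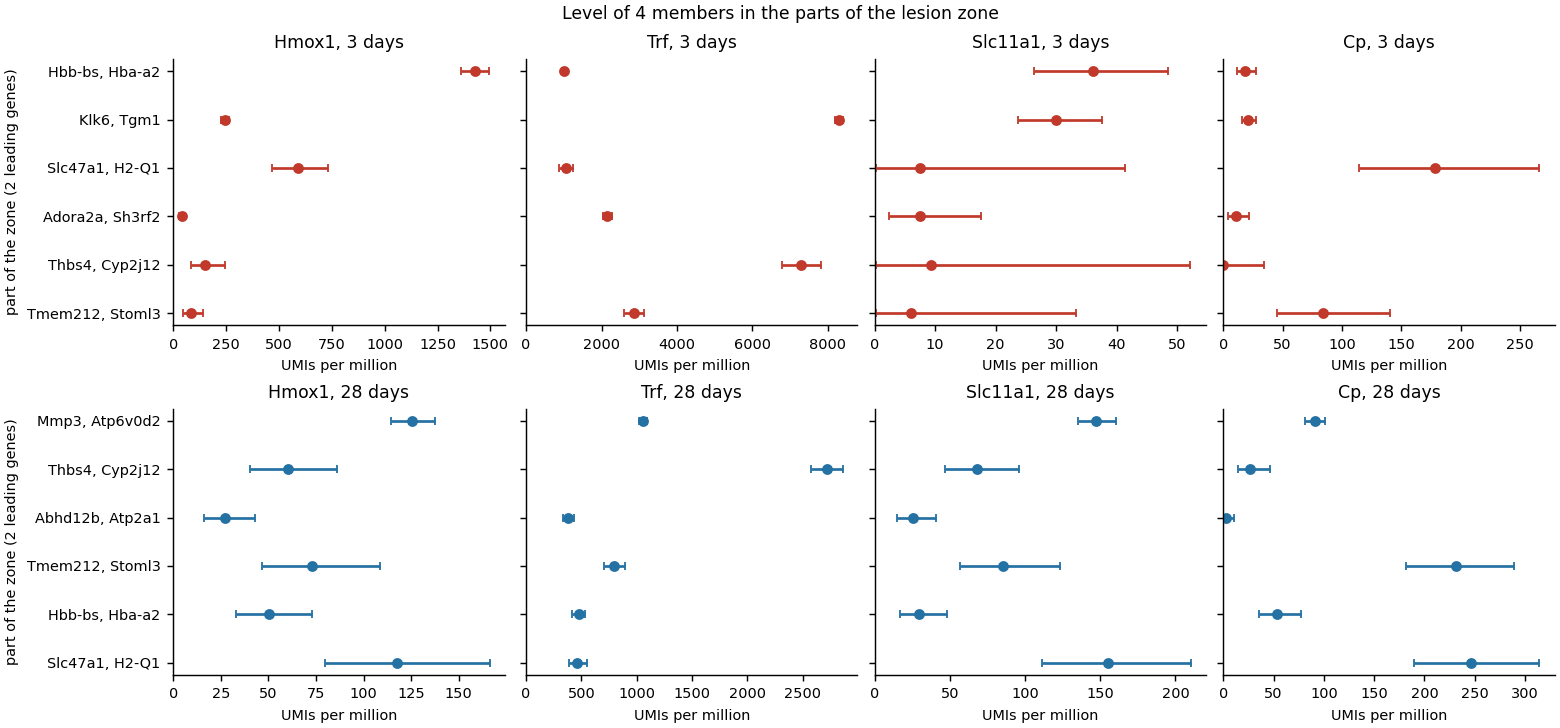
CPM of Hmox1, Trf, Slc11a1 and Cp in 6 of the parts of the lesion zone at 3 days (top) and 28 days (bottom), each part named by 2 leading genes, with 95% counting intervals as bars and axes starting at 0. Hmox1 is highest in the hemoglobin-led part (1425) at 3 days, Trf in the Klk6-led part (8300), and Cp in the Slc47a1-led part at both times (178.5 and 246) among the parts plotted.

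Within single regions Trf was mostly higher on the injured side at 3 days and mostly lower there at 28 days. By at least 2-fold, Trf was higher there in 5 regions and lower in 0 at 3 days. At 28 days it was higher by at least 2-fold in 1 region and lower in 1, so most differences were smaller. At 3 days it was higher on the injured side in 13 of 18 regions, with 1733 against 253 CPM in the Adora2a-led region, most of whose injured-side bins were zone bins (log2 2.77, 2.67 to 2.88), and 1542 against 419 CPM in the Tmem212-led region. In the Thbs4-led region it was 4712 against 3524 CPM (log2 0.42, 0.35 to 0.49). At 28 days Trf was lower on the injured side in 17 of 20 regions, with 2515 against 3210 CPM in the Thbs4-led region (log2 -0.35, -0.43 to -0.27) and 185 against 331 CPM in the Adora2a-led region (log2 -0.84, -1.02 to -0.66). Some regions kept their direction at both times. The region led by Ttr, Tmem72 and Slc4a5 was lower on the injured side, with 418.5 against 754 CPM at 3 days and 541 against 838 CPM at 28 days, as was the Abhd12b-led region, with 324 against 356 and 297 against 387 CPM. The region led by Ndnf, Gldc and Hapln1 was higher there, with 401 against 147 and 269 against 180 CPM. All of the injured side outside the zone had 590 CPM against 316 CPM at 3 days and 174.5 CPM against 330 CPM at 28 days (log2 -0.92, -0.96 to -0.87), a value that 98.9% of genes exceeded. Oligodendrocyte markers turned the same way there, with 4854 CPM at 3 days against 3558 CPM for the opposite side, and 2558 against 4760 CPM at 28 days, and their part in the Trf values was not tested. Whether these differences between times exceed the spread between mice cannot be seen from 1 section per time.

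Slc11a1 (chr1:74375014-74386057), the divalent metal transporter of phagosomes, had the opposite course. It was 26.0 CPM (131 UMIs, 21.7 to 30.8) in the zone and 3.75 CPM (27 UMIs) in its mirror at 3 days, and 100.3 CPM (718 UMIs, 93.1 to 108) and 2.44 CPM (18 UMIs) at 28 days. The ratio was 6.92-fold (log2 2.77, 2.18 to 3.45) and then 41.1-fold (log2 5.32, 4.69 to 6.13), the highest of the 9 genes at 28 days, and 65 of 13593 genes, or 0.478%, exceeded it. The zone was itself placed by phagocyte genes, so a high rank of a phagocyte gene may come in part from that placing. Over the other settings the zone ratio ran from log2 2.08 to 3.16 at 3 days and from 4.53 to 5.43 at 28 days. Over the whole sides it was 2.94-fold higher on the injured one at 3 days and 7.39-fold at 28 days, with a difference of the log2 ratios of 1.33 (0.98 to 1.68). The zone held 131 of the section's 564 Slc11a1 UMIs at 3 days and 718 of 997 at 28 days. Microglia and macrophage markers moved with it, at 2431 CPM in the zone at 3 days and 5486 CPM at 28 days, and their part in the Slc11a1 values was not tested.

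At 28 days the Mmp3-led part of the zone held 76.0% of its Slc11a1 UMIs at 147 CPM (135 to 160), and the Slc47a1-led part was at 155 CPM (111 to 211), overlapping it. The Thbs4-led part had 68.3 CPM and the Abhd12b-led part 25.6 CPM, so Slc11a1 was uneven over the zone. Zone bins with a Slc11a1 UMI at 28 days, 242 after thinning, had microglia and macrophage markers at 9482 CPM against 5937 CPM in bins without (log2 0.68, 0.56 to 0.79). At 3 days 49 bins had one, with 5461 against 2630 CPM. Within regions at 3 days Slc11a1 was higher on the injured side in 7 of 10 and lower in 3. The Ndnf-led region, 1 of these, had no UMI on the injured side (0 to 8.70 CPM) against 25 UMIs (9.12 CPM, 5.90 to 13.5). The size of that difference is thus not known. At the later time it was higher on the injured side in 8 of 8 regions compared, for example 14.8 against 2.56 CPM in the Abhd12b-led region (log2 2.50, 1.55 to 3.62).

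Steap3 (chr1:120226414-120271081), the endosomal ferrireductase, was 40.03 CPM (202 UMIs, 34.7 to 45.9) in the zone and 8.75 CPM (63 UMIs) in its mirror at 3 days. At 28 days the values were 34.9 CPM (250 UMIs, 30.7 to 39.5) and 5.55 CPM (41 UMIs). The zone exceeded the mirror zone 4.57-fold at 3 days (log2 2.19, 1.78 to 2.62) and 6.29-fold at 28 days (log2 2.64, 2.17 to 3.17), and the interval of the difference between times, -0.17 to 1.08, included 0. The 3 day ratio ranged from log2 1.56 (UMIs per bin) to 2.87 (side boundary moved towards the opposite side) over the other settings. Between whole sides it was 2.83-fold at 3 days and 1.81-fold at 28 days, but with only bins that have a mirror bin log2 0.90 and 0.98, so that order was not kept. Steap3 was highest in the Slc47a1-led part of the zone, at 260.3 CPM at 3 days and 238.5 CPM at 28 days, against 37.4 CPM in the Klk6-led part at 3 days and 29.1 CPM in the Mmp3-led part at 28 days. Bins with a Steap3 UMI had fibroblast and meninges markers at 2258 CPM against 346 CPM at 28 days (80 bins with one, log2 2.72). Beyond the zone Steap3 was 16.5 against 4.25 CPM at 250 to 500 µm at 3 days (log2 1.93, 1.17 to 2.83), while at 28 days only the innermost band had an interval above 0 (8.31 against 3.88 CPM).

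Slc11a2 (chr15:100387898-100424209), the endosomal iron transporter DMT1, differed little between areas. It was 96.7 CPM (488 UMIs) in the zone and 116 CPM (832 UMIs) in its mirror at 3 days, log2 -0.26 (-0.42 to -0.09), and 92.5 and 86.8 CPM at 28 days, log2 0.09 (-0.07 to 0.25). Between whole sides it was 103 against 104 CPM and 94.4 against 99.99 CPM. Its highest level was in the region led by Pou4f1, Chrnb4 and Chrna3, highest in habenula markers, at 178 CPM at 3 days and 191 CPM at 28 days, where the median over regions was 102 and 93.9 CPM. The intervals of that region and the next one overlapped at both times.

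Of 8 other genes of iron uptake, 3 were at least 2-fold higher in the zone at 3 days and none lower, against 17.1% of all genes higher and 8.72% lower, namely the ferrireductases Steap4 (6.54 against 1.39 CPM) and Cybrd1 (17.4 against 5.98 CPM) and the transporter Slc39a8 (7.73 against 3.20 CPM). At 28 days the same 3 were higher and Steap2 was lower (23.1 against 48.5 CPM), against 16.4% and 7.82% of all genes. Steap4 had 483 UMIs in the zone and 4 in its mirror at 28 days, 67.5 against 0.542 CPM (log2 6.79, 5.59 to 8.84), a higher ratio than that of any of the 9 genes. The transferrin receptor Tfrc, which takes up iron-loaded transferrin, was 50.5 against 78.9 CPM at 3 days (log2 -0.64, -0.86 to -0.43) and 31.995 against 59.3 CPM at 28 days (log2 -0.89, -1.13 to -0.66), within 2-fold at both times. Neuron markers were also lower in the zone, and their part in the Tfrc values was not tested.

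Fth1 (chr19:9980600-9985111), the ferritin heavy chain, was 4073 CPM (20553 UMIs, 4018 to 4129) in the zone and 2001 CPM (14398 UMIs) in its mirror at 3 days. At 28 days it was 4030 CPM (28842 UMIs) and 2535 CPM. The ratio was 2.04-fold at 3 days (log2 1.03, 0.99 to 1.06), just past 2-fold, and 1.59-fold at 28 days (log2 0.67, 0.64 to 0.70). Unlike Hmox1 and Trf, the zone level of Fth1 was alike at both times, with a log2 difference of -0.02 (-0.04 to 0.01). Its mirror level was higher at 28 days (log2 0.34, 0.31 to 0.37), so its zone ratio was lower then. Oligodendrocyte markers were also higher in the mirror zone at 28 days than at 3 days, and lower in the zone. Their part in the Fth1 values was not tested. The difference of the log2 ratios was -0.36 (-0.40 to -0.32, counting error only). In 6 other settings tried, the 3 day ratio was under 2-fold, among them the scaling to UMIs per bin, log2 0.40.

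Fth1 was highest in the Thbs4-led region in both sections. Its level there was 8788 CPM (8657 to 8921) at 3 days and 8559 CPM (8434 to 8686) at 28 days, and the median over the 23 regions was 1671 and 1663 CPM. Next came the Klk6-led region, with 5310 and 5961 CPM, and the Mmp3-led region, with 4939 and 4775 CPM, both highest in microglia and macrophage markers. The region led by Nkx2-1, Lhx8 and Sfrp5, highest in oligodendrocyte markers, followed with 3285 and 3210 CPM. In the Klk6-led region oligodendrocyte markers came a close second, with a mean log2 ratio of 2.20 against 2.47 for microglia and macrophages. In the Nkx2-1-led region the mean of oligodendrocyte markers was 1.82. In the Thbs4-led region Fth1 was lower on the injured side, 8109 against 9107 CPM at 3 days (log2 -0.17, -0.22 to -0.12) and 7078 against 9473 CPM at 28 days (log2 -0.42, -0.47 to -0.37). In the Adora2a-led region at 3 days, with most of its injured-side bins in the zone, it was 2146 against 1319 CPM (log2 0.70, 0.64 to 0.77). Outside the zone Fth1 was 1642 against 1448 CPM of the opposite side at 3 days and 1303 against 1736 CPM at 28 days. Against mirrored bands, Fth1 was higher at 3 days in the innermost band (log2 0.27) and lower in the other 3 (log2 -0.09, -0.14 and -0.08), and at 28 days it was lower in the first 3 (log2 -0.21, -0.40 and -0.15) and within counting error in the outermost (log2 -0.03). Of 4 other genes of storage and its turnover, 3 could be compared and none reached 2-fold at either time. They included the ferritinophagy receptor Ncoa4, at 135 against 120.2 CPM at 3 days.

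Slc40a1 (chr1:45908070-45926532), ferroportin, the iron exporter, had few counts. It was 7.33 CPM (37 UMIs) in the zone and 3.89 CPM (28 UMIs) in its mirror at 3 days, log2 0.91 (0.17 to 1.68), and 9.78 CPM (70 UMIs) and 3.93 CPM (29 UMIs) at 28 days, log2 1.30 (0.67 to 1.99), 2.49-fold. The 28 day ratio was under 2-fold with the side boundary moved towards the injured side (log2 0.84) and with the whole opposite side as reference (log2 0.96). With these counts the difference between times, 0.39 (-0.54 to 1.33), was not detectable. At 28 days 62.9% of the zone's Slc40a1 UMIs lay in the Mmp3-led part, which held 49.8% of the zone's bins. Among its regions the first and the second in level overlapped in their intervals at both times.

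Cp (chr3:19956933-20009750), the ferroxidase that works beside ferroportin, was 27.0 CPM (136 UMIs, 22.6 to 31.9) in the zone and 10.8 CPM (78 UMIs) in its mirror at 3 days. At 28 days it was 77.8 CPM (557 UMIs, 71.5 to 84.6) and 9.35 CPM (69 UMIs). The ratio was 2.49-fold at 3 days (log2 1.31, 0.90 to 1.73) and 8.33-fold at 28 days (log2 3.05, 2.69 to 3.44), so Cp, like Slc11a1, stood further above its mirror level at the later time. The difference of the log2 ratios was 1.74 (1.20 to 2.28, counting error only). With only bins that have a mirror bin, the zone ratios were log2 1.37 and 2.09, closer to each other. Between whole sides the ratio was 2.22-fold at 3 days, with 21.1 CPM on the injured side, and 2.38-fold at 28 days, with 24.999 CPM. The whole-side ratio at 3 days was under 2-fold with the side boundary moved towards the injured side (log2 0.93) and with only bins that have a mirror bin (log2 0.67, against 1.02 at 28 days). The zone ratio at 3 days was under 2-fold when scaled to UMIs per bin (log2 0.68) and with the side boundary moved towards the injured side (log2 0.66).

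In the maps of both sections Cp was high along the surfaces of the brain. Its highest level was in the Slc47a1-led region, 201 CPM (184 to 218) at 3 days and 184 CPM (162 to 209) at 28 days, followed by the region led by Cnn1, Acta2 and Myh11, highest in mural cell markers, with 145 CPM at both times. The Tmem212-led and the Ttr-led region, highest in ependyma and choroid plexus markers, had 65.0 and 42.8 CPM at 3 days and 109 and 45.1 CPM at 28 days, where the median over regions was 8.06 and 10.0 CPM. In the Slc47a1-led region Cp was 262 CPM on the injured and 168 CPM on the opposite one at 3 days (log2 0.65, 0.40 to 0.89), and 185 and 183 CPM at 28 days (log2 0.01, -0.36 to 0.40). In the Tmem212-led region it was 60.9 and 68.5 CPM at 3 days (log2 -0.17, -0.82 to 0.47) and 149 and 40.3 CPM at 28 days (log2 1.84, 1.03 to 2.85). Over the regions compared, Cp was higher on the injured side in 8 of 15 and lower in 7 at 3 days, and higher in 8 of 12 and lower in 4 at 28 days.

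The Mmp3-led part of the zone at 28 days held 60.7% of the zone's Cp UMIs at 91.2 CPM (81.7 to 101), against 21.1 CPM in the Klk6-led part at 3 days. Higher levels at 28 days were in small parts, 287 CPM in 112 bins led by Cnn1, Acta2 and Myh11, 246 CPM in the Slc47a1-led part and 231 CPM in the Tmem212-led part. Zone bins with a Cp UMI had fibroblast and meninges markers at 2025 CPM against 342 CPM at 28 days (114 bins with one, log2 2.57) and at 1527 against 379 CPM at 3 days (46 bins). Fibroblast and meninges markers summed to 434 CPM in the zone at 3 days and 497 CPM at 28 days, against 179 and 94.7 CPM in the mirror zones. Astrocyte markers summed to 5928 CPM in the zone at 3 days and 11336 CPM at 28 days, and mural cell markers to 793 and 422.5 CPM. The part of these markers in the Cp ratio was not tested.

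Of 6 other genes of iron export and the hepcidin axis, 3 could be compared in the zone, too few to set against the share of all genes. At 3 days 1 was higher, Hfe, a partner of the transferrin receptors, at 38.6 against 14.0 CPM. At 28 days 2 were, Hfe at 56.7 against 10.4 CPM (log2 2.44, 2.09 to 2.81) and Bmp6, an inducer of hepcidin, at 64.1 against 18.02 CPM (log2 1.83, 1.55 to 2.12). No gene of this group was 2-fold lower.

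Ireb2 (chr9:54862658-54912534), the iron-responsive element binding protein, was 72.1 CPM (364 UMIs) in the zone and 76.2 CPM (548 UMIs) in its mirror at 3 days, log2 -0.08 (-0.27 to 0.12), and 67.5 and 64.2 CPM at 28 days, log2 0.07 (-0.11 to 0.26). Both intervals lay within 0.27 of 0 on the log2 scale. Its range over regions was narrow, from 59.7 to 123 CPM at 3 days around a median of 71.2 CPM. Of 4 other regulators 2 were at least 2-fold higher in the zone at each time and none lower, against 17.1% of all genes higher at 3 days and 16.4% at 28 days. These were Nfe2l2 (NRF2), the activator of Hmox1 transcription, at 106 against 29.7 CPM at 3 days and 126 against 26.8 CPM at 28 days, and Bach1, a heme-sensing repressor of Hmox1, at 70.7 against 28.8 CPM and 66.6 against 26.0 CPM. Of 4 genes of lipid peroxide defence, 3 were measured and compared, and 1 was higher at 3 days, Aifm2 (FSP1), at 25.8 against 11.9 CPM, and none at 28 days.

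**Figure D4:**
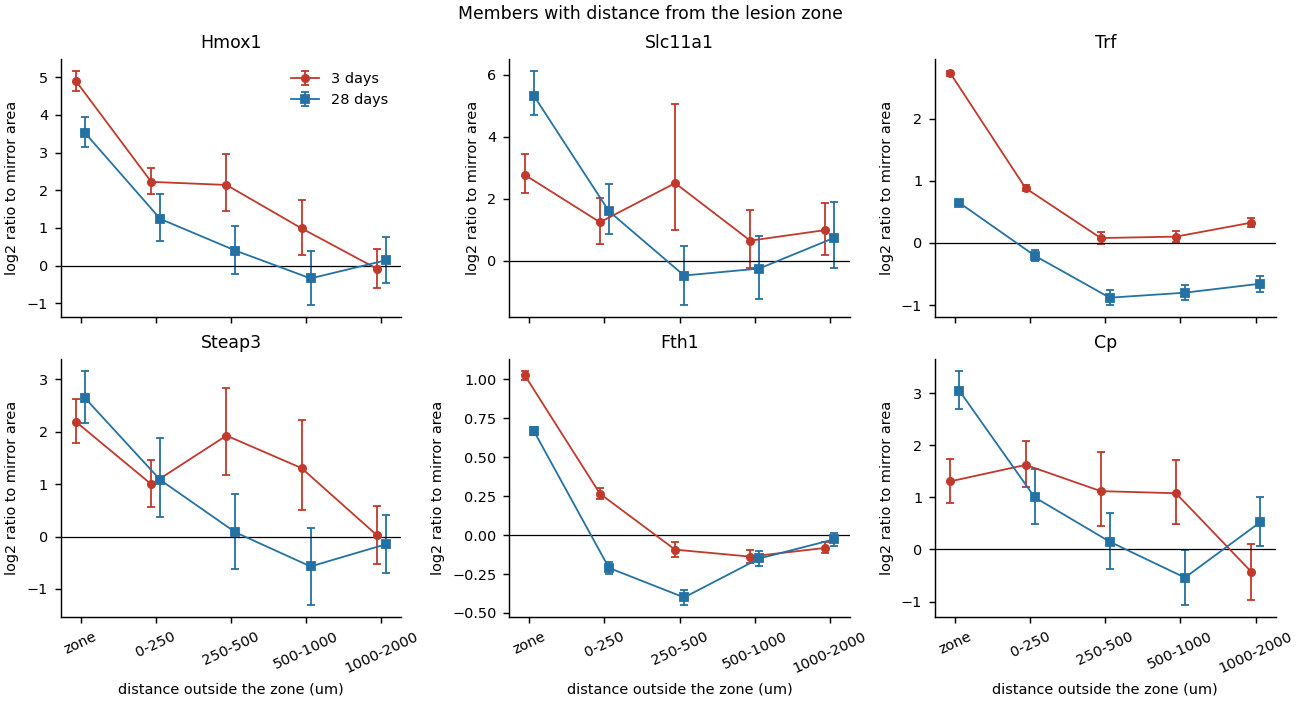
Log2 ratio of the level in the lesion zone and in bands of 0 to 250, 250 to 500, 500 to 1000 and 1000 to 2000 µm outside it to the mirrored area, for 6 of the genes, with 95% counting intervals as bars, circles for 3 days and squares for 28 days. Hmox1 stays above 0 through 3 bands at 3 days (2.22, 2.14 and 0.99), and Trf lies below 0 in every band at 28 days (-0.20 to -0.88).

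Beyond the zone the genes separated in reach. At 3 days Cp was 33.9 against 10.9 CPM in the innermost band (log2 1.63, 1.20 to 2.09) and 12.8 against 6.03 CPM at 500 to 1000 µm (log2 1.08, 0.49 to 1.72), but 5.70 against 7.67 CPM in the outermost one. Trf was 1604 against 872 CPM in the innermost band (log2 0.88, 0.83 to 0.93) and 447 against 423 CPM in the next. Its log2 ratio was 0.10 from 500 to 1000 µm and 0.33 from 1000 to 2000 µm, so it did not fall steadily with distance. Slc11a1 at 3 days was 5.17 against 0.797 CPM from 250 to 500 µm (25 and 3 UMIs, log2 2.50, 0.98 to 5.07) and 4.25 against 2.11 CPM in the outermost band (log2 0.99, 0.19 to 1.88), while in the band between them the interval included 0 (log2 0.65, -0.25 to 1.62). Slc11a1 at 28 days was 9.79 against 3.18 CPM in the innermost band (log2 1.60, 0.85 to 2.46), and the intervals of the others included 0. Trf at 28 days was lower in all 4 bands, from 331 against 381 CPM in the innermost to 158 against 291 CPM from 250 to 500 µm (log2 -0.88, -0.998 to -0.76). The bands differ from their mirrored bands in anatomy where the section is cut by the array edge, and the part of this was not tested. Oligodendrocyte markers were also lower in all 4 bands at 28 days, with 2186 against 4505 CPM from 250 to 500 µm, and their part in the Trf bands was not tested.

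**Figure D5:**
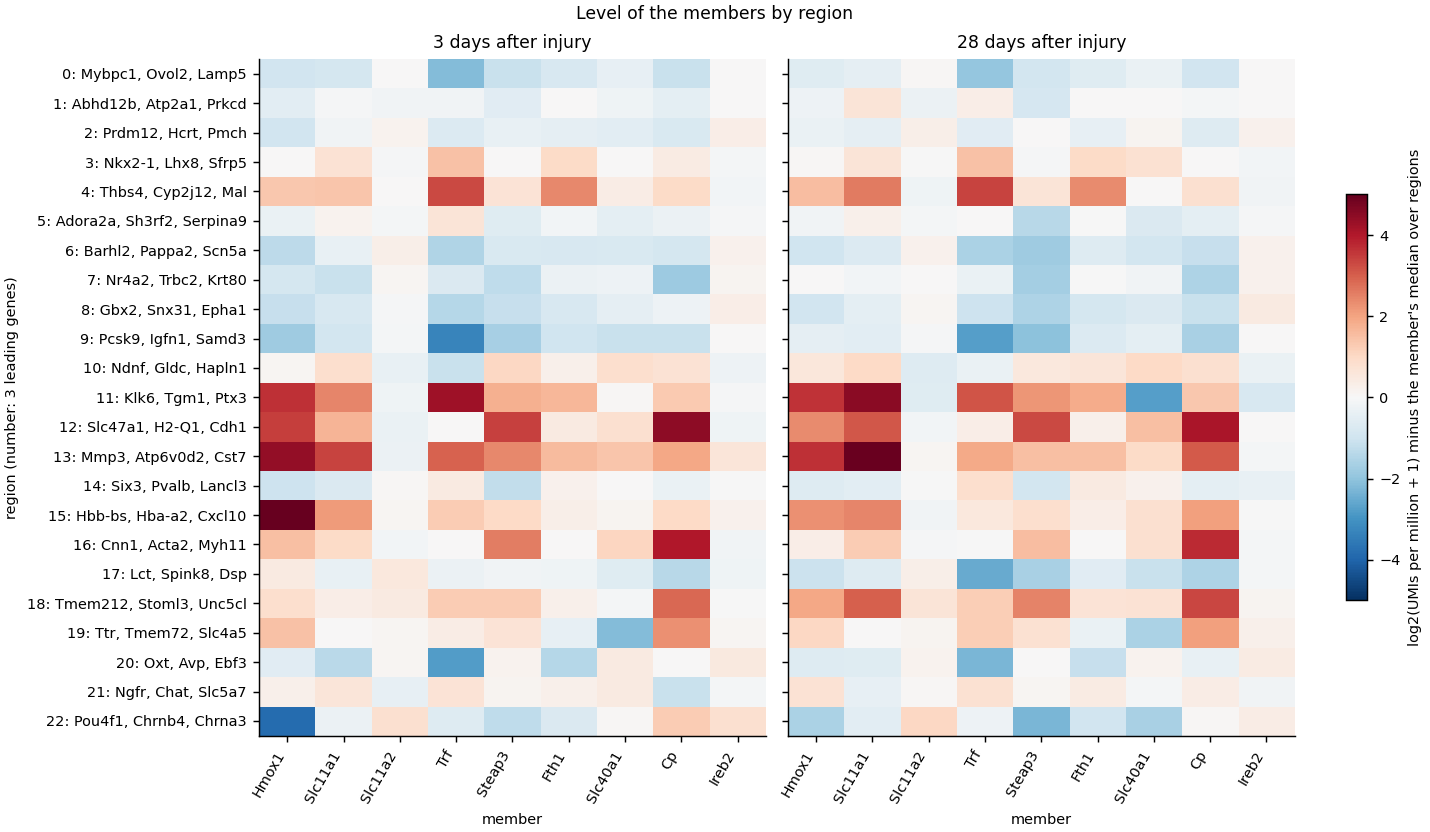
Level of the 9 genes in 23 regions at 3 and 28 days, as log2(CPM + 1) minus the gene's median over regions, with regions in lines and named by 3 leading genes. Cp and Steap3 stand out in the Slc47a1-led region at both times, Trf and Fth1 in the Thbs4-led and Klk6-led regions, and Slc11a1 in the Mmp3-led region at 28 days (147 CPM against a median of 3.81 CPM).

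Over all regions, the highest level of a gene stood clear of the next one, with intervals that did not overlap, for Hmox1 at 3 days (578 CPM in the Hbb-bs-led region against 298 CPM in the Mmp3-led region), for Cp at 3 days, and for Trf, Fth1 and Steap3 at both times. Trf was led by the Klk6-led region at 3 days (7505 CPM, then 3904 CPM in the Thbs4-led region) and by the Thbs4-led region at 28 days (2945 CPM, then 2525 CPM in the Klk6-led region). Steap3 was 102 CPM and 104 CPM in the Slc47a1-led region. For Hmox1 and Cp at 28 days and for Slc11a1, Slc11a2, Slc40a1 and Ireb2 at both times, the first and second region overlapped.

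Parts of the opposite side were not constant between sections either, while over the whole of it no member changed 2-fold. On that whole side Trf was 316 CPM at 3 days and 330 CPM at 28 days (log2 0.06). Hmox1 had the largest change there, with 9.67 and 6.69 CPM (log2 -0.53, -0.73 to -0.34). In the opposite side's region led by Lct, Spink8 and Dsp, highest in dentate gyrus markers, Trf was 315 CPM at 3 days and 42.3 CPM at 28 days (log2 -2.89). Hmox1 in its Slc47a1-led region was 124 and 16.3 CPM (218 and 8 UMIs, log2 -2.85). Trf in its Thbs4-led region was 3524 and 3210 CPM. The Klk6-led region, highest in microglia and macrophage markers, had 2392 bins on the opposite side at 3 days and 56 at 28 days. In those bins at 3 days Hmox1 was 57.7 CPM and Trf 5530 CPM. In the mirror zone Hmox1 was 17.1 CPM at 3 days and 7.72 CPM at 28 days (log2 -1.14, -1.63 to -0.68). Ratios to these parts of the opposite side therefore carry these differences, and without an uninjured section the level before injury is unknown.

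Across tiles of 64 µm, 7672 at 3 days and 6652 at 28 days, the genes whose level followed each member most closely were found by Pearson's r of log2(CPM + 1), over 11580 genes. Tiles share the library and the tissue layout, so r is a description with no test. Trf was most like Cldn11, a myelin gene (r 0.67 at 3 days and 0.56 at 28 days), and among its closest genes was Fth1 (0.63 and 0.58). Fth1 was most like Mbp (0.62 and 0.63), Qki and Trf. Cp was most like Aldh1a2 and Dcn (0.44 and 0.33 for both) and Col3a1 (0.42 and 0.34). The lists held myelin genes for Trf and Fth1 and genes of meningeal fibroblasts for Cp.

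Slc11a1 was most like Lyz2 (r 0.16 at 3 days and 0.44 at 28 days), Gpnmb (0.13 and 0.45) and Lgals3 (0.17 and 0.41), and Hmox1 most like Lyz2 (0.39 and 0.31), Lgals3 (0.42 and 0.28) and Spp1 (0.38 and 0.29). Lyz2 and Lgals3 are among the genes that placed the zone. For Slc11a2 (Dbn1, Nsg2 and Scg5), Ireb2 (Cacna1b, Scn2a and Tmem59l), Steap3 (Aldh1a2, Col3a1 and Dcn) and Slc40a1 (Slco1a4, Cldn5 and Ptprb) the mean r of the 2 sections was at most 0.24, which in sparse counts is no finding. Between members, r was highest for Trf and Fth1.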

How the data were processed

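Visium HD for FFPE tissue was run on 1 coronal brain section per group, grouped by the time after injury given in the labels. The authors deposited raw UMI counts per gene for each 16 µm bin under tissue, made according to the labels with Space Ranger 4.0.1 (probe set 2.0, mm10 in the submitters' processing notes) and not normalized. Total counts were 120615873 UMIs at 3 days and 82422389 at 28 days. The members and gene lists were chosen with earlier results of these data known.

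Bins under 100 UMIs were left out (1.93% and 2.15%). The injured side was the array columns below 130 at 3 days and below 240 at 28 days. A tile of 4 by 4 bins was in the lesion zone where the share of the 6 phagocyte genes, smoothed over 5 by 5 tiles, exceeded the opposite side's 99th percentile in a patch of 25 tiles or more. UMIs were summed per area and given as CPM with exact Poisson intervals. Log2 ratios used a pseudocount of 0.5 UMI and exact conditional binomial intervals (95%). A gene was called higher or lower at 2-fold or more with at least 20 UMIs over both areas. A count of 0 was set to a limit of 3 UMIs. No test was run, since each group was 1 section, and UMIs are captured probes, so intervals cover counting error only.

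Regions came from Leiden clustering (resolution 1) of 32 µm tiles with at least 400 UMIs, on 2000 variable genes without the members and the wider iron and heme list, 30 principal components and 15 neighbours. Doublets do not apply to bins, which can hold several cells. All measured members are named. Other genes are named if they are among the 3 with the highest mean r with a member across 64 µm tiles (genes with at least 500 UMIs in each section), if they belong to the wider list and pass 2-fold in the zone, or if they lead a region (3 highest ratios to the rest, at least 200 UMIs). 1 gene that this rule names is not reported here. Tfrc, Hmox2 and Ncoa4 were named from the wider list after their values were seen. Regions were compared between sides where both sides had at least 100 bins.

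Python 3.11.15, numpy 2.4.6, scipy 1.17.1, pandas 2.3.3, scikit-learn 1.9.0, leidenalg 0.10.2, igraph 0.11.9 and matplotlib 3.10.9 were used, with edgeR 4.0.16 for TMM factors only. The steps were tested on simulated data. Alternatives changed the scaling, the minimum per bin and per gene, the side boundary, the fold, the zone and its reference, the clustering and the thinning. Ftl1 was not analysed here.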

Additional observations from a re-analysis of the deposited data

Results flagged for a closer look

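In tissue of the injured side outside the lesion zone, the log2 ratio to the whole opposite side was 0.90 at 3 days and -0.92 at 28 days for Trf, and 0.18 and -0.41 for Fth1. In the band of 0 to 250 µm outside the zone it was 0.88 and -0.20 for Trf and 0.27 and -0.21 for Fth1. From 500 to 1000 µm it was 0.10 and -0.80 for Trf and 1.08 and -0.54 for Cp, and from 1000 to 2000 µm 0.33 and -0.65 for Trf. All of these are picked out because the sign differed between the times, each with 1 section, and the difference was not tested. In the other 3 bands Fth1 did not change sign, with -0.09, -0.14 and -0.08 at 3 days and -0.40, -0.15 and -0.03 at 28 days. The injured side was 2.08 mm wide at 3 days and 3.84 mm at 28 days, so that the tissue outside the zone was not the same at both times. Oligodendrocyte markers outside the zone were 4854 CPM at 3 days, against 3558 CPM for the opposite side, and 2558 against 4760 CPM at 28 days. The part of either in the values was not tested.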

How the results depend on the processing

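The 4 comparisons of area were repeated with other scalings, minimums, side boundaries, folds, zones and references. Of 84 alternative counts of members called higher or lower, 83 were within 1.5 times of the reported count. All counts of members called lower were 0 and stayed 0. A count of higher members could lose a member and still be within 1.5 times, so this tally says little. The other was the count of members higher on the injured side at 3 days, 3 in place of 5 with bins that have a mirror bin, an area of fewer bins. Of 169 alternative ratios of called members, none changed direction and 13 were under 2-fold: 6 of Fth1 and 2 of Cp in the zone at 3 days (0.40 to 0.99 and 0.66 to 0.68 on the log2 scale), 2 of Cp and 1 of Steap3 between the sides at 3 days (0.93, 0.67 and 0.90), and 2 of Slc40a1 in the zone at 28 days (0.84 and 0.96). By more than their counting error moved 96 of 306 ratios of members, 59 of 155 marker levels in zone bins and 19 of 54 levels in the highest region. No error was computed for r, and 16 of 27 values of r moved by more than the gap between the sections. The zone ratio of Hmox1 at 3 days ranged from 3.16 (zone placed by Gfap and Vim) to 5.71, that of Trf from 2.10 to 4.01, that of Slc11a1 at 28 days from 4.53 to 5.43 and that of Cp at 28 days from 2.09 to 3.14. Scaling to UMIs per bin moved the median of all genes in the zone from 0.13 to -0.50 at 3 days and from -0.00 to -0.25 at 28 days. Of the marker levels 1 reversed, fibroblast and meninges markers in bins with against without Ireb2 at 28 days, from -1.09 to 0.61 in unthinned bins. Counts limit Slc40a1, with 37 and 28 UMIs in the zone and its mirror at 3 days. No replicate could be left out with 1 section per group. No paired analysis was possible because each group has 1 section and no test was run.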
